A study of Mus musculus with 6 samples.

Results

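The genes described here are 8 that encode parts of R-spondin signaling at the cell surface or markers of adult stem cells: the receptors *Lgr4*, *Lgr5* and *Lgr6*, the secreted R-spondins *Rspo1*, *Rspo2* and *Rspo3*, the TNF receptor family member *Tnfrsf19* (Troy), and *Procr*, the protein C receptor. They were chosen by name out of 18193 genes on the array, and 15 probe sets carried 1 of these symbols alone. Their RNA was measured on 6 Affymetrix mouse arrays, 1 per sample, in 3 acinar mammary tumors and in 3 control mammary glands. The tumors had grown in mice with the genotype K14-cre; *Apc* CKO/+, in which the K14 promoter drives Cre in progenitor cells of both mammary lineages and Cre deletes part of 1 conditional *Apc* allele. Per the study's text, all 3 tumors were heterozygous for the deleted allele, *Apc* Δ580, and carried a truncation in the other. The control glands were taken from *cre*-negative mice matched for age, and the ages were not given in the sources used here. A gland holds fat, vessels and stroma beside its epithelium, and a bulk sample cannot tell fewer cells of a type from less RNA per cell.

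R-spondins bind LGR receptors together with the membrane ubiquitin ligases ZNRF3 and RNF43, which otherwise remove Frizzled receptors from the cell surface, and so raise the response of a cell to Wnt ligands. APC acts further down the same pathway, in the complex that marks β-catenin for destruction. *Lgr5* and Troy are known as markers of stem cells in the intestinal crypt, and *Lgr5*, *Lgr6* and *Procr* each label subsets of epithelial cells in the mammary gland. *Procr* is also made by the endothelium of vessels.

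Troy and *Lgr6* were higher in the tumors, *Lgr5* and *Procr* were lower, and *Lgr4* did not pass the test. Of the 5 members that could be tested, 2 were called higher, where 16.3% of all 12518 genes tested were, and 2 were called lower, where 16.8% were. A gene was called at an adjusted p under 0.05 in limma, adjusted by the Benjamini-Hochberg method over all genes tested, with no limit on the fold. The 3 tumors lay above the 3 control glands for 3 of these members, as they did for 27.1% of all genes, and below them for the other 2, as for 23.1%. Groups that do not overlap in either direction were found for 50.2% of all genes. With 33.1% of genes called in either direction, the number of members called says little about them as a group, and their sizes and directions are the measurements described here. *Rspo1*, *Rspo2* and *Rspo3* were dimmer than the filter allows, a signal of 100 or more on 3 or more of the 6 arrays, and were not tested.

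**Figure D1:**
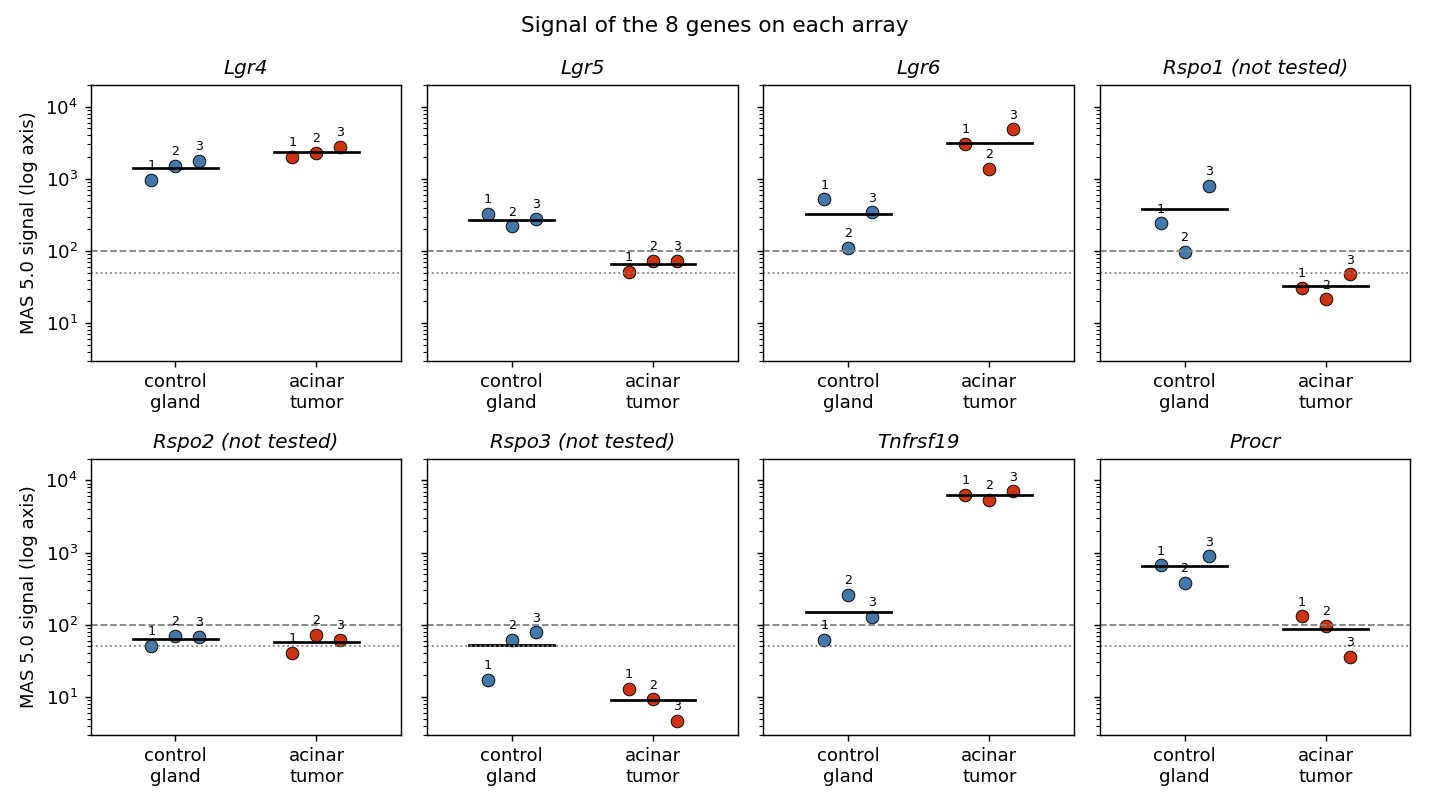
Signal of each of the 8 genes on each array, on a log axis in MAS 5.0 units, with 3 control glands (blue) and 3 acinar tumors (red) numbered by replicate and the mean of each group as a bar. The dashed line is the filter at 100 and the dotted line the floor at 50. Troy rose from 60.9–260.3 in control glands to 5297.9–7029.9 in tumors, while the tumors lay below the control glands for *Lgr5*, *Rspo1*, *Rspo3* and *Procr*. For *Rspo3* all tumors and control replicate 1 lay below the floor.

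*Lgr6* was the LGR receptor that rose. Its signal, the MAS 5.0 intensity of its brightest probe set, was 517.4, 109.9 and 341.3 in control replicates 1, 2 and 3, and 3049.7, 1381.6 and 4844.1 in tumor replicates 1, 2 and 3. The lowest tumor lay above the highest control gland, and both groups were wide, with a 4.71-fold range among control glands and a 3.51-fold range among tumors. The means were 323 ± 204 (SD, n = 3 control glands) and 3092 ± 1732 (SD, n = 3 tumors). On the log2 scale the difference was 3.35, a 10.2-fold rise, with a standard error of 0.65 and a 95% confidence interval from 1.82 to 4.87 (adjusted p = 0.00818, limma). The second probe set of *Lgr6* gave 173.6, 97.9 and 150.8 in control glands against 580.3, 309.6 and 906.3 in tumors. It placed the 6 arrays in the same order as the first and rose by 2.00 on the log2 scale (adjusted p = 0.0109 in the limma fit of 26967 probe sets). With no filter on low signals the change of *Lgr6* was as large, with an adjusted p of 0.0539.

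*Lgr5* moved the other way. Its signal was 322.5, 218.8 and 276.7 in the control glands and 51.2, 72.7 and 72.3 in the tumors. Every tumor lay below every control gland, and all 3 tumors lay close to the floor of 50, below which signals were set to 50. The log2 difference was −2.06, a 4.17-fold fall, with a standard error of 0.25 and an interval from −2.65 to −1.47 (adjusted p = 0.00137, limma). *Lgr5* passed the filter through the 3 control glands alone, and a probe set that passes in this way must read lower in the tumors. The second probe set, with 61, 16 and 45.9 in the control glands and 9.7, 42.2 and 54.9 in the tumors, did not reach 100 on any array and gives no second reading. When a control array was left out, *Lgr5* no longer had 3 arrays at 100. With the probe set kept, its log2 difference lay between −2.21 and −1.89 over the 6 fits without 1 array, each of them called.

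*Lgr4*, the most widely expressed of the LGR receptors, gave 964.1, 1489.5 and 1748.3 in the control glands and 2028.4, 2288.6 and 2773.6 in the tumors. The groups did not overlap, but the nearest tumor and control gland lay close together. The log2 difference of 0.79 had a standard error of 0.28 and an interval from 0.13 to 1.44, and the adjusted p of 0.0667 (limma) missed the threshold. That p was 0.0412 with equal array medians, where the difference was 1.02 and the median of all genes was 0.31 in place of 0.07, and 0.0481 with a variance trend. Over the alternatives with a limma fit it ranged from 0.0412 to 0.182. The second probe set of *Lgr4* stayed at or below 52.9 on all 6 arrays.

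Among the ligands, *Rspo1*, which acts with Wnt4 on mammary stem cells, was the only one with a signal of at least 100 on more than 1 array. It gave 241.4, 97.4 and 789.4 in the control glands and 30.5, 21.3 and 47.4 in the tumors. All 3 tumors were below 50 and below every control gland, and the control glands themselves differed 8.1-fold. Against the floor of 50 the tumors were at least 5.30-fold lower, or −2.40 on the log2 scale. In a limma fit with no filter, of 18193 genes, *Rspo1* had an adjusted p of 0.121. With quantile normalization the same gene passed the filter with an adjusted p of 0.0306, and with equal array medians with 0.0193 (both limma). In both it passed through the control glands alone and had to read lower in the tumors, so these p-values are no independent support for a fall.

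*Rspo2* and *Rspo3*, ligands of the same LGR receptors, were close to or below the floor on nearly all arrays. The brighter *Rspo2* probe set gave 51.4, 70.2 and 68.2 in the control glands and 41.2, 72.5 and 61.1 in the tumors, and the groups overlapped. Its other probe set read 149.8 in tumor replicate 2 and at most 42 on the other arrays. The brighter *Rspo3* probe set gave 17.4, 60.8 and 78.1 in the control glands and 12.9, 9.2 and 4.7 in the tumors, and the other one stayed at or below 47.4 on all arrays. In the brighter one every tumor lay below every control gland, but all tumors and control replicate 1 read below the floor. With no filter the adjusted p was 0.96 for *Rspo2* and 0.312 for *Rspo3* (limma). The remaining R-spondin, *Rspo4*, did not exceed 10.1 on any array. No change in these ligands was detectable at this signal, which does not show that there was none.

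Troy, an orphan receptor of the TNF receptor family, had the largest change of the members. Its brightest probe set gave 60.9, 260.3 and 129.8 in the control glands and 6255.7, 5297.9 and 7029.9 in the tumors. Every tumor lay far above every control gland, and the tumors were within 1.33-fold of each other while the control glands differed 4.27-fold. The log2 difference was 5.60, a 48.4-fold rise, with a standard error of 0.49 and an interval from 4.45 to 6.74 (adjusted p = 0.000392, limma). By size of change Troy stood at rank 31 of the 12518 genes tested.

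The other probe sets of Troy had all control glands below 100 and all tumors above it. They passed the filter through the tumors alone and had to read higher there, so they are no independent support for the rise. One gave 83.1, 80.3 and 34 in control glands against 653.2, 512 and 857.3 in tumors, a log2 difference of 3.25. The last gave 37.9, 83 and 61.3 against 516.8, 223 and 273, a difference of 2.32. The log2 differences thus ran from 2.32 to 5.60, and the size of the rise depends on the probe set. The mean over the 3 probe sets gave 3.72, the smallest value for Troy over the limma alternatives.

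**Figure D2:**
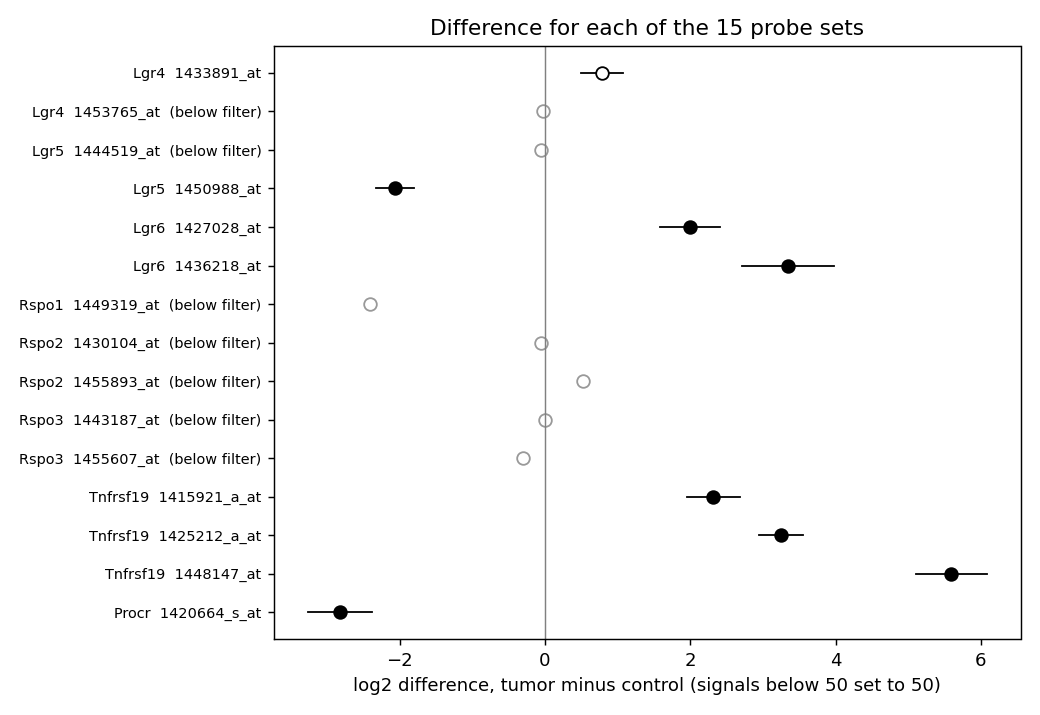
Log2 difference between tumors and control glands for each of the 15 probe sets, with signals below 50 set to 50. Filled points were called in the limma fit of probe sets, the open black point was tested and not called, grey points failed the filter on low signals and were not tested, and bars are standard errors. The 2 probe sets of *Lgr6* and the 3 of Troy each lie on the same side of 0, with differences of 2.00 and 3.35 and of 2.32, 3.25 and 5.60, of which the 2 smaller ones of Troy passed the filter through the tumors alone.

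The starts of these genes can be set beside the changes, since *Lgr5* and Troy are known targets of β-catenin, which acts through TCF and LEF proteins. Promoter windows of 250 bases before the transcription start were taken from RefSeq (build GRCm38.p6) for 5 members, in 6 windows. The windows of *Lgr5*, *Rspo2* and *Rspo3* were not used here. Both strands were searched for the TCF/LEF motif CTTTG followed by A or T and again by A or T, which stood 1 or more times in 14.8% of 32851 windows of this length over all genes. The 2 windows of Troy and that of *Lgr6* are shown because these are the members that rose, 5′ to 3′ on the strand of the gene, the minus strand for all 3, with a motif in capitals.
*Tnfrsf19*, chr14:61037988-61038237: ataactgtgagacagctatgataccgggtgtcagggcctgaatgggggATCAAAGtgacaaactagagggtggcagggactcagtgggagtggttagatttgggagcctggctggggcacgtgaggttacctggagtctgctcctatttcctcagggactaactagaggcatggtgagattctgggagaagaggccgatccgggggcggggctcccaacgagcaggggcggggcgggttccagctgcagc
*Tnfrsf19*, chr14:61046856-61047105: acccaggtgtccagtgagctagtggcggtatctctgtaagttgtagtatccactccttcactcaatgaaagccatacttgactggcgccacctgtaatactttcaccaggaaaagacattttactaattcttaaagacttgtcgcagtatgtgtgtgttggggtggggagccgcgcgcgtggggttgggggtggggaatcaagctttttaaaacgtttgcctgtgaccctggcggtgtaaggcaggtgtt
*Lgr6*, chr1:135105277-135105526: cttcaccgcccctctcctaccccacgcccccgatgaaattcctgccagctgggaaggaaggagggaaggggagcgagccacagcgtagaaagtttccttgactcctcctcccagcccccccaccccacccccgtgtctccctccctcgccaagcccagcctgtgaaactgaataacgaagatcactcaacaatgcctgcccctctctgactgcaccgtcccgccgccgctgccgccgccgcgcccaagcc
The first window of Troy was the only 1 of the 6 with a match, CTTTGAT on the opposite strand, read as ATCAAAG in the printed direction, with its first base 202 bases before the start. The match is a run of letters and not a binding site shown by these data, and no match in the other windows says only that these letters are absent there.

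*Procr*, which binds protein C on endothelium and marks a population of mammary stem cells, fell. Its signal was 664.9, 375.6 and 882.8 in the control glands and 130.3, 95.4 and 35.5 in the tumors. The tumors lay below all control glands, with tumor replicate 3 below the floor. The log2 difference was −2.82, a 7.08-fold fall, with a standard error of 0.44 and an interval from −3.86 to −1.79 (adjusted p = 0.00347, limma). The single probe set of *Procr* is of a kind that may also bind other transcripts, and without such probe sets *Procr* was not tested.

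Markers of several cell types also differed between the groups. Of 15 pan-epithelial genes, 13 were higher in tumors and 2 were not called, and their summed signal was 15000–33600 in control glands and 96700–122000 in tumors. Of 15 endothelial genes, 13 were lower and 2 were not called, with sums of 12500–16200 and 2830–6090, and of 15 genes of fibroblasts and matrix, 13 were lower and 2 were not called, with sums of 67600–84900 and 6640–23100. All 10 adipocyte genes tested were lower, with sums of 180000–236000 and 3790–15300, while the sums of 10 genes of skeletal muscle overlapped, at 7710–225000 and 1140–46100. Of 13 luminal genes 7 were higher and 1 lower, and of 12 basal genes 3 were higher and 1 lower. All 11 genes of mitosis tested were higher, and 1 of 6 genes of squamous cells and hair was higher. Among tested genes 3 of 9 of macrophages, 2 of 3 of lymphocytes and 2 of 4 of Schwann cells were lower, with 1 of the last higher. Over all genes tested 16.3% were higher and 16.8% lower, 33.1% in all. The basal, squamous and macrophage counts lie near or below that last share. *Spdef* (luminal), *Bub1*, *Bub1b* and *Aurkb* (mitosis) and *Tchh* (hair) passed the filter through the tumors alone and had to read higher there. *Vwf* (endothelium), *Ms4a1* and *Cd79b* (lymphocytes) passed through the control glands alone and had to read lower in the tumors. Control replicate 2 stood apart with the lowest epithelial sum and the highest muscle sum, and it had the lowest *Lgr6* and the highest Troy of the control glands. Without it the log2 differences were 2.70 for *Lgr6*, 6.11 for Troy and −3.17 for *Procr*, each called, and 0.85 for *Lgr4*, not called. *Lgr5* failed the filter there, and with its probe set kept it had −2.21 and was called. The part of these cell types in the changes of the members was not tested.

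Each member was therefore also set against the mean log2 signal of a marker list on the same array, which gives a value with no test. Relative to the pan-epithelial genes, Troy was −4.32, −1.18 and −3.44 in the control glands and 0.53, 0.26 and 0.50 in the tumors, a difference of 3.41 with the groups apart. *Lgr6* kept a difference of 1.16, but with −1.23, −2.42 and −2.05 in the control glands and −0.51, −1.68 and −0.03 in the tumors the groups overlapped. *Lgr4* turned, with a difference of −1.40 and all tumors below all control glands. *Lgr5* and *Procr* lay further down against the epithelial genes, at −4.25 and −5.01, with all tumors below all control glands. On these scales the values of the R-spondins are no measure of the ligands, since their tumor signals stood below or near the floor. The tumor signals of *Lgr5* also stood near it.

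Against the endothelial genes the difference of *Procr* was −0.80, with −0.14, −1.14 and −0.12 in the control glands and −1.30, −0.85 and −1.65 in the tumors, and against the fibroblast genes it was −0.06. The groups overlapped in both. The value of tumor replicate 3 stood at the floor there. *Lgr5* likewise overlapped on both scales, with −0.04 relative to endothelium and 0.70 relative to fibroblasts and matrix. Over the same arrays the median log2 difference was −1.91 for the endothelial list and −3.07 for the fibroblast list, beside −2.06 for *Lgr5* and −2.82 for *Procr*. Further lists fell too, with medians of −5.80 for adipocytes, −2.86 for lymphocytes and −1.22 for macrophages. A gene that fell by about as much as the endothelial or the fibroblast list could overlap on that scale, whatever cells it came from. For Troy, *Lgr6* and also *Lgr4*, which was not called, every tumor lay above every control gland on both of these scales. The differences were 7.62, 5.37 and 2.81 relative to endothelium, and 8.36, 6.11 and 3.55 relative to fibroblasts and matrix. Both lists were lower in the tumors, so a gene with no change would also rise against them.

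**Figure D3:**
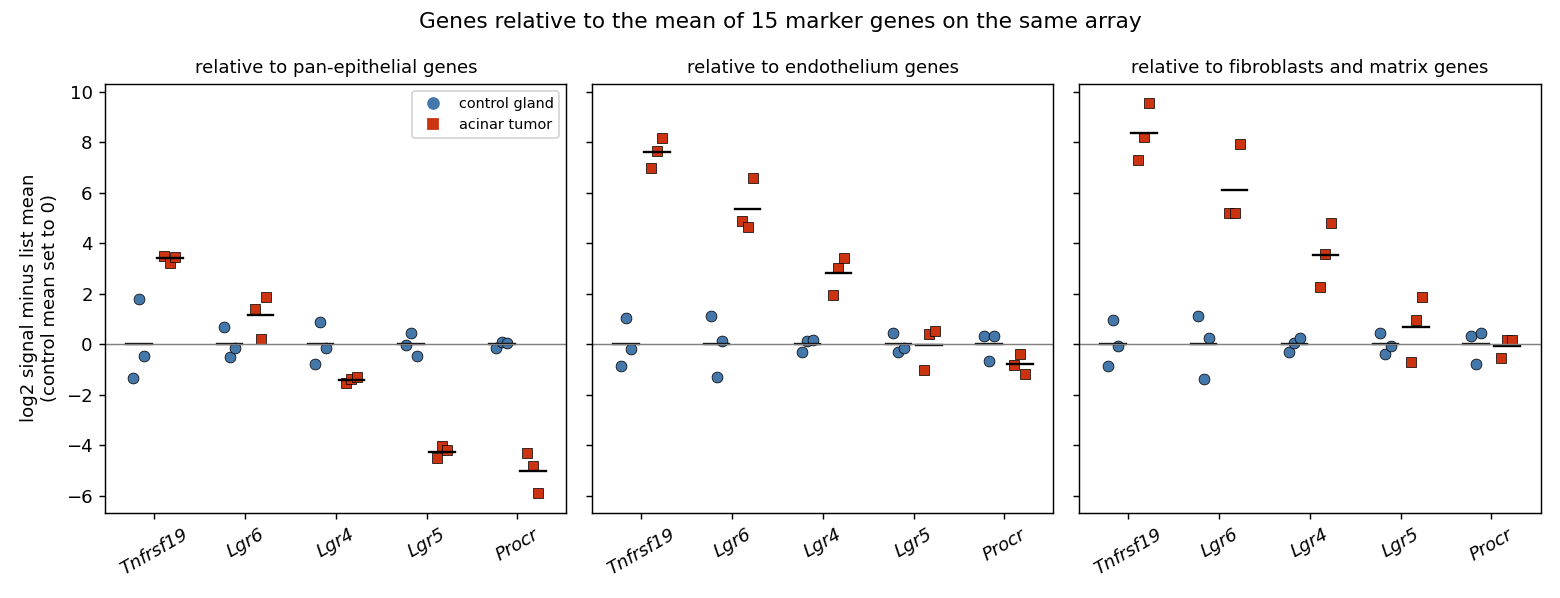
Log2 signal of the 5 genes tested minus the mean log2 signal of 15 marker genes on the same array, with the mean of the control glands (circles) set to 0, tumors as squares and group means as bars. Relative to pan-epithelial genes only Troy kept every tumor above every control gland, while *Lgr5* and *Procr* overlapped between the groups relative to endothelial and to fibroblast genes.

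A list of 22 genes held other genes of the R-spondin receptor complex and of Wnt receptor turnover. It also held the Wnt receptors and the ligand genes *Rspo4*, *Ndp* and *Tnfsf11*. Of the 22, 18 were tested, 4 were higher, 1 was lower and 13 were not called. That is close to the background, where 33.1% of all genes were called, and is no result about the list as a whole. The median log2 difference of the 18 was 0.20, where that of all genes tested was 0.07. Both ubiquitin ligases that R-spondins remove from the membrane rose. *Rnf43* gave 204.5, 95 and 249.3 in the control glands and 1472.8, 1400 and 1912.5 in the tumors, a log2 difference of 3.22 (adjusted p = 0.00114, limma). *Znrf3* gave 497.3, 515.8 and 480.2 against 1595.6, 1387.6 and 2063, a difference of 1.74 (adjusted p = 0.00162, limma). In both, every tumor lay above every control gland, and both were called in every limma alternative.

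Among the Wnt receptors, *Fzd4* fell and *Fzd9* rose. *Fzd4*, a Frizzled receptor with a known role in vessels, gave 5961.5, 8935.8 and 8308.1 in the control glands and 634.8, 598 and 675.2 in the tumors, a log2 difference of −3.58 (adjusted p = 0.000149, limma). *Fzd9* went from 74.7, 58.4 and 96.6 to 178.6, 351.2 and 659.8, a difference of 2.21 (adjusted p = 0.0111, and 0.059 with no filter). *Ndp*, whose product norrin binds FZD4, went from 90.2, 88.2 and 77.5 to 360.3, 209.7 and 136.9, a difference of 1.36 (adjusted p = 0.0237), a call lost when any control gland was left out and with no filter, at 0.0804. Both genes passed the filter through the tumors alone, so that they had to read higher there. The 3 furthest from passing were the Wnt signal transducer *Dvl2* at 0.10, *Fzd7* at 0.12 and *Fzd5* at −0.11, each of which changed sign under another setting. *Lrp5*, *Dvl3*, *Rspo4* and *Tnfsf11* failed the filter.

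**Figure D4:**
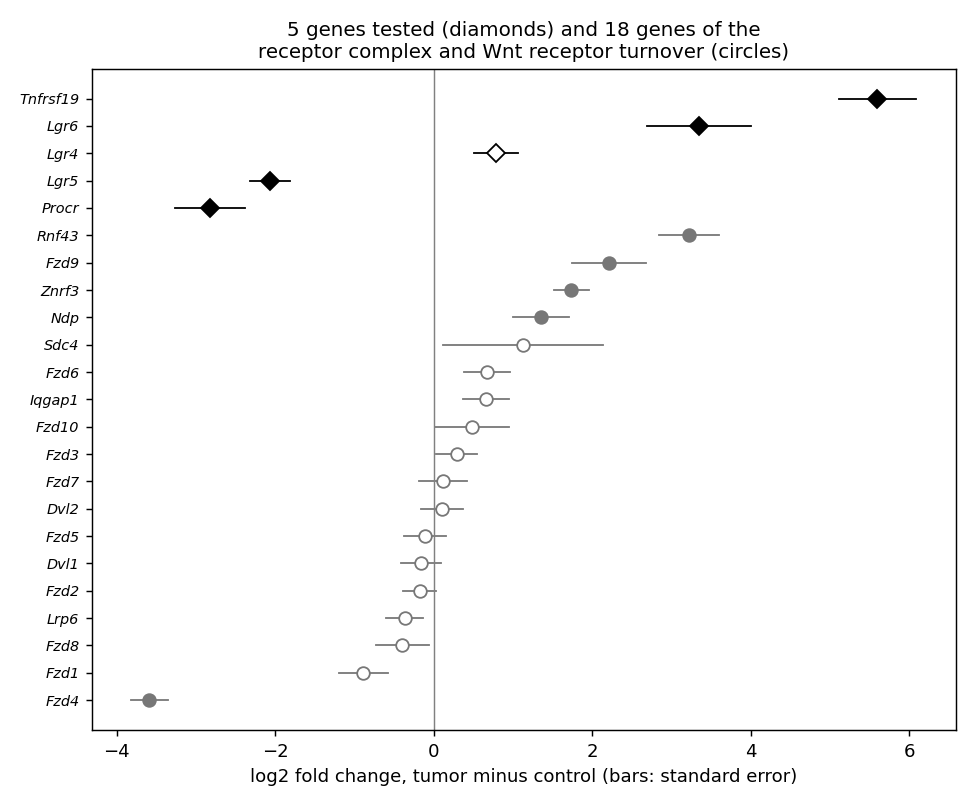
Log2 difference between tumors and control glands, with standard errors, for the 5 members tested (diamonds) and 18 genes of the receptor complex and Wnt receptor turnover (circles). Filled symbols passed the limma test at an adjusted p under 0.05. The ligases *Rnf43* and *Znrf3*, at 3.22 and 1.74, lie on the same side as *Lgr6* and Troy, and *Fzd4*, at −3.58, on the side of *Lgr5* and *Procr*.

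Of 22 target genes of β-catenin, 14 were tested, with a median of 1.22. Of the 14, 8 were higher, where 16.3% of all genes were, 2 were lower, where 16.8% were, and 4 were not called. The higher ones include *Notum*, which passed the filter through the tumors alone, and the lower ones *Bmp4*, which passed through the control glands alone. The filter fixed the direction of both. *Wif1*, a secreted Wnt inhibitor, rose by 3.14 (adjusted p = 0.0099), the transcriptional regulator *Id2* by 2.49 (adjusted p = 0.00866) and the cyclin gene *Ccnd1* by 2.37 (adjusted p = 0.00156, all limma). With no filter the adjusted p was 0.0607 for *Wif1* and 0.0519 for *Id2*. *Apcdd1*, another Wnt inhibitor, fell by 2.49 on the log2 scale (adjusted p = 0.00402). *Axin2*, the feedback scaffold of the destruction complex, rose by 1.11 (adjusted p = 0.02), and its adjusted p ran up to 0.0703 over the limma alternatives. *Sox9* at 0.04 and the ephrin receptor gene *Ephb3* at 0.09 were furthest from passing. Of 12 genes of crypt stem cells other than the members, 8 were tested, with a median of 0.86. Of the 8, 3 were higher, where 16.3% of all genes were, and 5 were not called. With 33.1% of all genes called in either direction, this count is no result about the list as a whole. The largest change of the 8 was that of *Prom1*, which encodes a membrane protein also found on luminal cells and rose by 2.70 (adjusted p = 0.015, limma). The hyaluronan receptor gene *Cd44* followed at 1.33 (adjusted p = 0.0058, limma). The limma call of *Prom1* was lost with no filter (adjusted p = 0.0768), without control replicate 3 (0.0507) and without tumor replicate 2 (0.0567). The replication-associated gene *Cdca7* had 1.09 and did not pass. *Axin2*, *Cd44* and *Sox9* stand in both lists.

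None of the 6 tested relatives and partners of Troy, of 10 listed, was called in limma, where 33.1% of all genes were, or by the methods' t-test, and their median was −0.15. At an unadjusted p under 0.05, 1 of them passed in limma, *Traf2*, a signal adaptor of TNF receptors, at 0.67. *Lingo1*, with which Troy forms a receptor for myelin inhibitors in neurons, had −0.04, and *Eda2r*, a related receptor, had −0.22. Of 9 partners of *Procr*, 5 were tested, 3 were lower, where 16.8% of all genes were, and 2 were not called, with a median of −1.36. Thrombomodulin (*Thbd*), which activates protein C beside PROCR on endothelium, gave 1162.2, 1935.9 and 3246.4 in the control glands and 170.8, 150.7 and 109.4 in the tumors, a log2 difference of −3.78 (adjusted p = 0.000712, limma). Tissue factor (*F3*) had −1.71 (adjusted p = 0.0384) and its inhibitor *Tfpi* −1.36 (adjusted p = 0.0159). The call of *F3* was lost without any 1 control gland and without tumor replicate 2 or 3, and that of *Tfpi* without control replicate 1, where the value was −0.58. With no filter both calls were lost as well, at an adjusted p of 0.133 for *F3* and 0.0555 for *Tfpi* (limma). The thrombin receptor *F2r* had 0.29 (adjusted p = 0.533) and protein S (*Pros1*) −0.68.

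The progesterone and estrogen axis, through which Wnt4 and RANKL reach mammary stem cells, was a list of 11 genes, of which 6 were tested. Of the 6, 1 was higher, where 16.3% of all genes were, 4 were lower, where 16.8% were, and 1 was not called. Their median was −2.30. *Wnt4*, the partner of *Rspo1*, gave 232.7, 231.5 and 314.4 in the control glands and 17.6, 52.7 and 45.2 in the tumors, a log2 difference of −2.34 (adjusted p = 0.000448, limma). It passed the filter through the control glands alone and had to read lower in the tumors, and 2 tumors stood below the floor, so that the difference was −2.89 with a floor of 16 and −1.36 with a floor of 100. *Tnfsf11*, which encodes RANKL, did not exceed 85.8 on any control array and 28.5 on any tumor array. Its receptor *Tnfrsf11a* rose by 1.01 (adjusted p = 0.0197), a call lost when any control gland was left out. The estrogen receptor gene *Esr1* had −2.27, the progesterone receptor gene *Pgr* −2.69 and the luminal factor *Foxa1* −4.52, and all 3 were called lower. *Elf5*, a factor of luminal progenitors, had 2.14 and was not called.

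The genes whose log2 signals, centred on their mean, lay closest to each member over the 6 arrays were found by root-mean-square difference. For *Lgr6* they were the amino acid transporter *Slc7a5* at 0.388 and the epithelial splicing factor *Esrp2* at 0.407, and for Troy the proton pump subunit *Atp6v1c2* at 0.806 and 1500002F19Rik at 0.816. For *Procr* they were the water channel *Aqp1*, found on vessels, at 0.18 and *Shox2* at 0.225. For *Lgr5* they were *Cd209a*, a lectin of dendritic cells, at 0.15 and *Hdgfl3* at 0.158, and for *Lgr4* the kinase gene *Nek4* at 0.0769 and *Zfp846* at 0.0905. With only 6 arrays many genes follow the difference between the groups alone, and Troy had no gene as close to it as the other members had.

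The signal of *Apc* does not check the deletion, since the probe sets of these arrays are designed toward the 3′ ends of transcripts. Its brightest probe set gave 1922.4, 2076.9 and 2148.9 in the control glands and 1922.9, 1525.9 and 2006.1 in the tumors (adjusted p = 0.597 in the limma fit of probe sets). Median signals ran from 124.4 to 170.7, and 54.27% to 61.47% of probe sets reached 100. The ratio of 3′ to 5′ signal was 1.44 to 2.32 for *Actb* and 0.795 to 1.25 for *Gapdh*, with the ranges of the groups overlapping. With 3 samples a group the smallest p that an exact permutation test can give is 0.1, and so few arrays limit the precision of every value.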

How the data were processed

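RNA of 3 acinar mammary tumors and 3 control glands was hybridized to Affymetrix mouse arrays. The authors made the deposited values, intensities on a linear scale, with the MAS 5.0 algorithm and scaled them to a target of 500. Detection calls were not used here. The labels name the samples biological replicates and do not say whether each came from its own animal, so p-values may partly measure technical spread.

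Of 45101 probe sets, 64 controls were left out, 34945 had 1 gene symbol, 932 several and 9160 none here. Signals below 50 were set to 50, log2 values were taken, and probe sets with at least 100 on at least 3 arrays were kept (22492, for 12518 genes). The brightest probe set stood for a gene. The comparison used limma 3.58.1 (lmFit, eBayes; R 4.3.3), with 2-sided tests. The fits were tested on simulated data. The members and the lists (219 symbols, 204 in the annotation, 171 tested) were chosen with earlier results of these data known. Named were all members, in the receptor complex list all called genes and the 3 furthest from passing, in other lists up to 4 called genes with the largest changes and up to 2 furthest from passing, and the 2 genes nearest each member. *Tnfrsf11a*, *Traf2* and the dim genes *Rspo4*, *Lrp5*, *Dvl3* and *Tnfsf11* were named after their values were seen. So were *Notum*, *Bmp4* and the cell type markers named for passing the filter through 1 group alone.

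The alternatives tried were no filter or a filter of 200, a floor of 16 or 100, the signal plus 50 before log2, equal array medians or quantile normalization, a variance trend, the replicate block, each array left out, the mean over probe sets, leaving out probe sets prone to cross-hybridization, the methods' t-test (size of t at least 4.5, at least 2-fold, unequal variances) and its adjusted form, and at least a 2-fold change. Scaling to marker lists and fixed probe sets with an array left out were added after seeing the data.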

Additional observations from a re-analysis of the deposited data

How the results depend on the processing

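Over the limma alternatives the direction of the 5 members held, with log2 differences of 0.54 to 1.02 for *Lgr4*, −2.21 to −1.43 for *Lgr5*, 2.67 to 3.84 for *Lgr6*, 3.72 to 6.11 for Troy and −3.17 to −2.33 for *Procr*. The causes of the changes below were not tested. With equal array medians, which shift the median of all genes by 0.24, 3026 genes were higher and 1665 lower in place of 2045 and 2098, *Lgr4* at 1.02 was called, and the genes called higher were 5 of the crypt, 2 of the hormone and 1 of the Troy list. The Troy list also had 1 with a floor of 100, quantile normalization and a filter of 200. With no filter *Lgr6* at 3.35 was lost, leaving 1 member higher, and the receptor complex had 2 and the β-catenin targets 3 higher. A filter of 200 left 2 receptor genes higher and 1 β-catenin target lower, and a variance trend called *Lgr4* at 0.79 and 2 receptor genes lower. Without cross-hybridizing probe sets 1 member was lower. *Rspo3* was 0.58 with a floor of 16 and 0.26 with log2 of the signal plus 50, where another probe set was brightest, and *Rspo2* 0.24 as a mean over probe sets. At least 2-fold left 1329 genes higher.

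The methods' t-test called 685 genes higher and 920 lower, 1605 in all, with 1 member higher (Troy) and 1 lower (*Lgr5*), *Lgr6* (3.26) and *Procr* (−2.88) missing it. It called 2 receptor, 3 β-catenin, 1 crypt and 0 hormone genes higher and 0 *Procr* partners lower. Adjusted by Benjamini-Hochberg, it called 67 higher and 73 lower, 140 in all, and 0 genes of the members and of the 6 pathway lists: Troy was 5.36 (adjusted p = 0.0908), *Lgr5* −2.06 (0.12), *Procr* −2.88 (0.187) and *Lgr6* 3.26 (0.246).

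Relative to pan-epithelial, endothelial and fibroblast genes in turn, the differences were −1.40, 2.81 and 3.55 for *Lgr4*, −4.25, −0.04 and 0.70 for *Lgr5*, 1.16, 5.37 and 6.11 for *Lgr6*, 3.41, 7.62 and 8.36 for Troy, −5.01, −0.80 and −0.06 for *Procr*, −4.59, −0.38 and 0.36 for *Rspo1*, −2.24, 1.97 and 2.71 for *Rspo2*, and −2.50, 1.71 and 2.45 for *Rspo3*. For the R-spondins, whose tumor signals lay below or near the floor of 50, these values follow the marker lists and are no measure of the ligands. The tumor signals of *Lgr5* also lay near that floor.

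With 1 array left out, 1241 to 1545 genes were higher, 1151 to 2012 lower and 2392 to 3557 in all, fewest without control replicate 3. The receptor complex had 2 to 4 higher and 1 to 2 lower, the β-catenin targets 4 to 6 and 1 to 2, the crypt genes 1 to 3 and 0 to 1, the hormone list 0 to 1 higher, the *Procr* partners 1 to 4 lower, and the members 2 higher and 1 to 2 lower, the loss being *Lgr5* at the filter without a control array. *Rspo2* ranged from −0.19 to 0.79. Genes near 0 changed sign: *Lingo1* was 0.17 with quantile normalization, 0.20 with equal medians and −0.15 to 0.17 with an array left out, above 0 without control replicate 1. *Eda2r* was 0.01 and 0.02 with these 2 scalings, 0.02 in the t-test, and −0.64 to 0.30 with an array left out, above 0 without tumor replicate 2 or 3. *Fzd5* was 0.13 with equal medians and −0.27 to 0.08 with an array left out, above 0 without control replicate 1 or tumor replicate 2. *Sox9* was −0.22 in the t-test and −0.72 to 0.47 with an array left out, below 0 without control replicate 2 or tumor replicate 3. *Dvl2* ranged from −0.14 to 0.30 and *Fzd7* from −0.19 to 0.31, both below 0 without tumor replicate 1.

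Same-numbered samples did not deviate together (correlations of −0.222, 0.021 and 0.038). With the replicate number as a block, 3490 genes were called, 7 β-catenin targets were higher, *Axin2* being the one lost, and the members kept their calls: *Lgr4* 0.0542, *Lgr5* 0.00966, *Lgr6* 0.00481, Troy 0.00365 and *Procr* 0.0143 as adjusted p.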
